A study of Mus musculus with 8 samples.

Results

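The genes described here are a set of 36 interferon-inducible genes in mouse CD4+ T cells: 22 Ifit/Oas genes and other antiviral effectors and sensors, 7 guanylate-binding (Gbp) and immunity-related (Irg) GTPase genes, 4 Ifi200 genes and 3 Ifitm genes. They were listed by name, with earlier results of these data known. Each was read on its brightest probe set that carries a single gene symbol, over the WT, Smad2KO and Smad3KO arrays. Of the 36 genes, 34 had such a probe set, among 18193 genes that did, and Isg15 and Ifi44 were not analysed here on any probe set. The study asked how TGF-b acts on T cells that lack Smad2 or Smad3, which carry the signal of its receptor to the nucleus. Naive CD4+CD25-CD44loCD62Lhi cells were sorted from spleens of C57BL/6J mice to a stated purity above 98%. The genotypes were wild type (WT), a deletion of Smad2 made conditionally in the T lineage (Smad2KO), Smad3-/- (Smad3KO), and Smad2del/delSmad3+/- cells (Smad2KO_Smad3het), which the study used in place of cells lacking both genes. The sources used here give neither the age of the mice nor the Cre line. Every culture ran for 24 h with plate-bound antibody to CD3e and soluble antibody to CD28 (1 ug/ml of each). Every culture also held IL-2 (10 ng/ml) and antibodies to IFN-g and to IL-4 (10 ug/ml of each), so the controls too were activated cells under an antibody to IFN-g. TGF-b was added at 2 ng/ml or left out, which gives 8 cultures with 1 Affymetrix array each.

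Interferons are secreted proteins that alert cells to infection. Type I interferons act through Ifnar1 and Ifnar2 and activate genes that carry an interferon-stimulated response element (ISRE), whereas IFN-g acts through Ifngr1 and Ifngr2 on genes that carry a gamma-activated site (GAS). The induced proteins bind foreign RNA (Ifit, Oas and the RIG-I-like receptors), attack the vacuoles of intracellular microbes (Gbp and Irg), sense DNA (Ifi200) or block the entry of viruses through membranes (Ifitm). Resting and activated T cells also hold a basal level of many of these transcripts.

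Values below are scaled signals: deposited intensities multiplied per array so that every array has the same mean after trimming 2% at each end. The floor, the median signal of the 6 WT, Smad2KO and Smad3KO arrays, was 32.5, and signals under it have no order. A ratio with 1 side under the floor is therefore a lower bound. A gene was tested if its highest of these 6 signals reached 65.0, that is 2 times the floor, and 25 of the 34 members did, as did 9453 genes in all. Members that passed only through 1 bright array had to differ between arrays, so the tested members are not all members. The 9 members below that limit were Ifit1, Mx1, Oas2, Oasl1, Oasl2, Rsad2, Rtp4, Ifi203 and Ifi204. Nearest to the limit were Ifi203, whose highest signal was 62.9, and Oas3, which passed on 1 array at 69.4. Signals of different probe sets are not compared with each other.

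The arrays were checked before the results. The 6 WT, Smad2KO and Smad3KO arrays had rank correlations of 0.907 to 0.928 with each other, and the Smad2KO_Smad3het arrays 0.660 to 0.693 with those 6, with scaled medians of 103 and 107 against 30.7 to 35.7. The Smad2KO_Smad3het arrays therefore stand apart and are given as values, outside the main fits. The Smad2 signal without TGF-b was 1068 in WT and 1155 in Smad2KO, and that of Smad3 was 149 in WT and 614 in Smad3KO. Neither was lower in its knockout. A probe outside the deleted segment cannot check a label, no source used here places these probes, and genotypes are therefore given as labelled. All 7 matched CD4 T cell markers were bright on the 6 arrays, including Cd4 and Cd3e, and 1 of them, Cd2, rose with TGF-b. None of 6 matched B cell markers, 0 of 4 conventional dendritic cell markers and 2 of 10 myeloid markers were bright, with summed signals of 84.5 to 103 for B cell and 181 to 316 for myeloid markers. Both CD8 T cell markers (summed signals 68.2 to 161) and 2 of 6 plasmacytoid dendritic cell markers (598 to 741) were bright without a call. Of 4 matched NK cell markers 1 was bright, Nkg7, and it rose by 1.52 with TGF-b (limma adjusted p = 0.000134), while the other 3 were under the floor. In the Smad2KO_Smad3het arrays the B cell and myeloid sums ran from 607 to 1171 and from 2797 to 3197. Signals of 18S ribosomal RNA, on 3 control probe sets, were 2614 to 4020 in WT without TGF-b and 70.7 to 184 with it. They read 35.0 to 79.5 and 123 to 226 in Smad2KO, and 877 to 2544 and 716 to 997 in Smad3KO, so they were higher with TGF-b in Smad2KO and not in WT. The part of these signals in the results was not tested.

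The sequence upstream of the start site was read from RefSeq (GRCm38.p6) for 28 of the 36 members, with 250 bases before each of 32 start sites. The ISRE core was searched on both strands as GAAA, any 2 bases and GAAA again, so that it also appears as TTTC, any 2 bases and TTTC, with overlapping matches counted apart. It was present in 16 of the 28 members (57.1%) and in 936 of 27025 genes of the table (3.46%). The 250 bases held it in 8 of 17 Ifit/Oas genes, 5 of 5 Gbp/Irg genes, 2 of 3 Ifi200 genes and 1 of 3 Ifitm genes. The GAS pattern, TTCNNNGAA, is its own reverse complement and was present in 5 of the 28 members (17.9%) and in 8.13% of genes. The 2 patterns overlapped in Bst2 alone. The sequences below are those of the genes that the results turn on, Igtp and Ifit3 for rises with TGF-b, Gbp2, Mndal and Ifitm3 for falls, and Gbp2b for its genotype difference. Ifitm2 is shown as the 1 Ifitm gene with the core. They run 5′ to 3′ on the strand of the gene and end at the base before the start site, and capitals mark the ISRE core and, in Igtp at -45, the GAS pattern. Igtp lies on the plus strand at chr11:58199306-58199555, Ifit3 on plus at chr19:34583279-34583528, Gbp2 on plus at chr3:142620413-142620662 and Gbp2b on plus at chr3:142594597-142594846. Mndal (the first of 2 start sites) lies on the minus strand at chr1:173880188-173880437, Ifitm2 on minus at chr7:140955962-140956211 and Ifitm3 on minus at chr7:141010745-141010994.
Igtp: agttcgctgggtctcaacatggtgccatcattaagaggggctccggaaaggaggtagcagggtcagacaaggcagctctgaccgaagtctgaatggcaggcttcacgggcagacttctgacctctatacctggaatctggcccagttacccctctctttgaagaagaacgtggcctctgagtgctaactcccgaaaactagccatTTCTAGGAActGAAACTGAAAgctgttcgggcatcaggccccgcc
Ifit3: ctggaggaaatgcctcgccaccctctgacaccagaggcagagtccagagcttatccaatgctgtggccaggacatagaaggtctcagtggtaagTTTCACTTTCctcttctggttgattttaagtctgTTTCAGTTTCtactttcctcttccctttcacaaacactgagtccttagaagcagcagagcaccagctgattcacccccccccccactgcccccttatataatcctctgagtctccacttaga
Gbp2: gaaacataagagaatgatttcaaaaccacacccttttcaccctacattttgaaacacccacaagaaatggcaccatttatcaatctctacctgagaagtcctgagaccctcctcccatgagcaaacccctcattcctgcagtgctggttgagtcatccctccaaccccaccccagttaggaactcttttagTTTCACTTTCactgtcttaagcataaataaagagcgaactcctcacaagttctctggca
Gbp2b: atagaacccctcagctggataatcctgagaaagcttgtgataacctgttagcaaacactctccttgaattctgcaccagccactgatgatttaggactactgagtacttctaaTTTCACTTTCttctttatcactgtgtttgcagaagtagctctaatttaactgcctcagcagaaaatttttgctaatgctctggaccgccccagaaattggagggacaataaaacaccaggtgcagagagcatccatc
Mndal: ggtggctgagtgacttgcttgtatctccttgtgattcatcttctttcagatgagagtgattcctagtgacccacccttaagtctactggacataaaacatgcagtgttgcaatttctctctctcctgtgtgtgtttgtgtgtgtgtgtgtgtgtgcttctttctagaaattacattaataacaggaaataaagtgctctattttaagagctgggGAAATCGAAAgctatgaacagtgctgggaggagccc
Ifitm2: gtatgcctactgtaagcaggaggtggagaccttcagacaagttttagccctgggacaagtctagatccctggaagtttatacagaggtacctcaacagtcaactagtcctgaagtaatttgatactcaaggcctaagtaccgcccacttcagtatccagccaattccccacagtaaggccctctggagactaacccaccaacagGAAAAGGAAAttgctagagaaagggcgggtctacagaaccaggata
Ifitm3: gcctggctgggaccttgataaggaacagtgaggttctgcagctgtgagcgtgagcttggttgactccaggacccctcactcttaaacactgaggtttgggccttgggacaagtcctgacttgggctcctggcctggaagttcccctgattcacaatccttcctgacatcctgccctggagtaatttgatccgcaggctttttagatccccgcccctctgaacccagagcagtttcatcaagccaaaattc
The core begins at -34 in Igtp, -156 and -122 in Ifit3, -59 in Gbp2, -137 in Gbp2b, -36 in Mndal and -46 in Ifitm2. Ifitm3 holds neither pattern in this window. Ifit3, Gbp2 and Gbp2b share the letters TTTCACTTTC, although Ifit3 rose and Gbp2 fell with TGF-b. Of the members tested for TGF-b, the core was in 2 of the 3 that rose, 2 of the 6 that fell, and 8 of the 12 others that were in the promoter table. A match is a description of letters, not evidence of binding.

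With TGF-b some members rose and more fell. In the fit over WT, Smad2KO and Smad3KO with genotype as a block (limma, Benjamini-Hochberg adjusted p under 0.05 over all 9453 genes), 3 of the 25 members rose (12%), against 7.16% of all genes. In the same fit 6 members fell (24%), against 5.61% of all genes. Because the members were chosen with earlier results of these data known, their shares beside those of all genes describe the list and test nothing. Those that rose were Ifit3 and Samhd1 of 13 Ifit/Oas genes and Igtp of 7 Gbp/Irg genes. Those that fell were Ifih1 among the Ifit/Oas genes, Gbp2 among the Gbp/Irg genes, Ifi209 and Mndal (2 of 2 Ifi200 genes) and Ifitm1 and Ifitm3 (2 of 3 Ifitm genes), where Ifitm1 passed the brightness limit through its arrays without TGF-b alone. The median log2 response was 0.21 for Ifit/Oas genes, -0.28 for Gbp/Irg, -1.41 for Ifi200 and -1.64 for Ifitm genes, beside -0.02 for all genes tested. That Ifitm median is the floored estimate of Ifitm1, so it carries the same limit. The log2 ratio lay below 0 in all 3 genotypes in 4 of 7 Gbp/Irg genes, 2 of 2 Ifi200 genes, 3 of 3 Ifitm genes and 2 of 13 Ifit/Oas genes, beside 26.5% of all genes. It lay above 0 in all 3 in 4 of 13 Ifit/Oas genes and 1 of 7 Gbp/Irg genes, beside 23% of all genes. With the Smad2KO_Smad3het arrays in the fit none of the 29 members then tested passed in limma (9 at an unadjusted p under 0.05), and 19 of 13610 genes did. That run also took the floor (41.9) and the brightest probe sets over all 8 arrays, so more than the arrays in the fit changed. Without limma's trend and robust settings Gbp2 and the 3 genes that rose were not called. Each group rests on 1 culture per genotype and treatment, and no source states separate animals, so a p-value reflects only how these cultures varied. In such bulk samples, fewer cells of a type and less RNA per cell cannot be told apart.

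**Figure D1:**
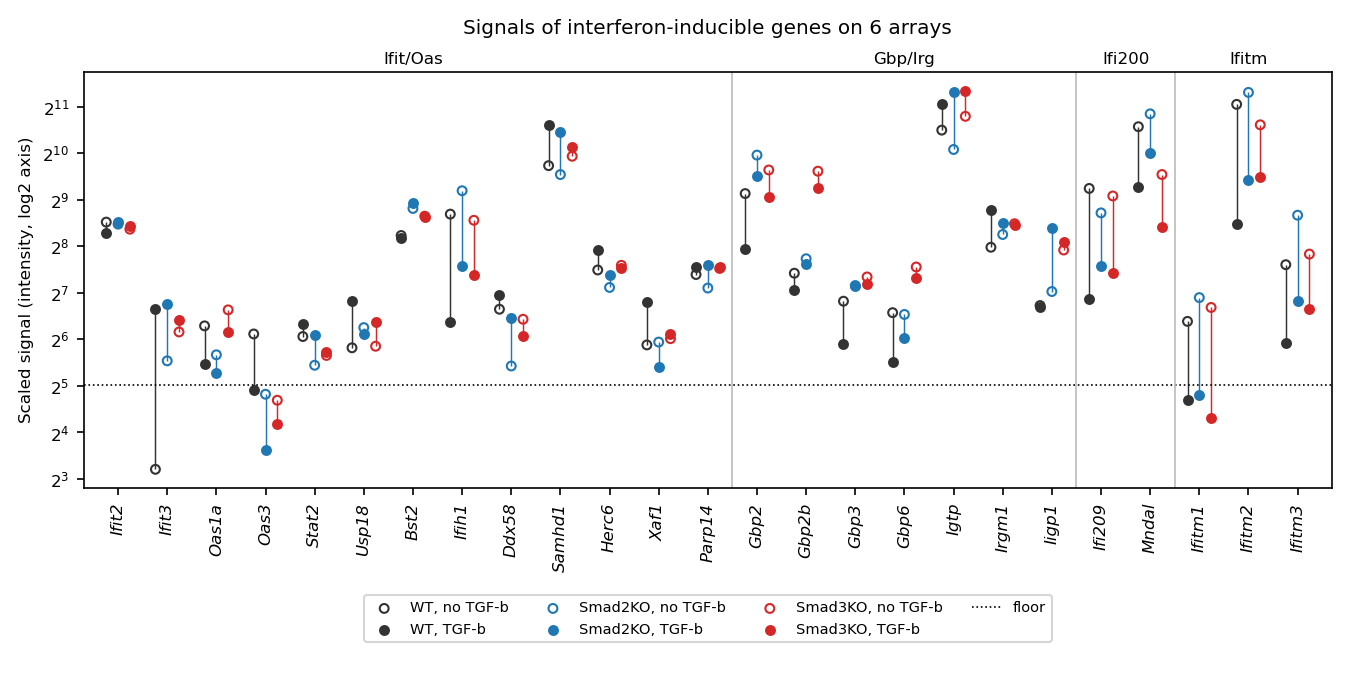
Scaled signal (log2 axis) of the 25 tested members on the WT, Smad2KO and Smad3KO arrays, open circles without and filled circles with TGF-b, with a line joining the pair of each genotype and the floor dotted. The filled circles of the 3 Ifitm genes, Ifi209 and Ifih1 all lie below the open ones.

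The Ifitm genes encode small membrane proteins that restrict the entry of enveloped viruses, and they lie side by side on chromosome 7. Ifitm3, the broadest restriction factor of the family, read 195 in WT, 407 in Smad2KO and 228 in Smad3KO without TGF-b, and 60.9, 113 and 101 with it. The 3 arrays with TGF-b all lay below the 3 without. On the log2 scale, as for all changes below, Ifitm3 fell by 1.57 (SE 0.173, limma adjusted p = 0.000142). Ifitm1, which acts at the cell surface, read 83.7, 119 and 103 without TGF-b in WT, Smad2KO and Smad3KO, and 25.9, 27.9 and 19.9 with it. All its arrays with TGF-b were under the floor, so its log2 ratios of -1.36, -1.88 and -1.66 are bounds. On the floored values Ifitm1 fell by 1.64 (SE 0.266, limma adjusted p = 0.00199), an estimate that rests on the floor. Ifitm1 was tested only because its arrays without TGF-b were bright, so it had to be lower with TGF-b, and its call supports nothing further. With a filter on the mean signal it was not tested. Ifitm2, a close relative of Ifitm3, read 2125, 2539 and 1566 without TGF-b, and 359, 687 and 721 with it.

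The Ifitm2 groups did not overlap either, and the ratios were -2.57 for WT, -1.89 for Smad2KO and -1.12 for Smad3KO. Its mean of -1.86 (SE 0.347) was the lowest of all 25 members but missed the threshold (limma adjusted p = 0.0803), with the 3 genotypes far apart. Its side of the threshold depends on the processing: Ifitm2 was called without the WT pair, without the Smad3KO pair, with a filter on the mean signal, with no filter, with the mean of probe sets, without limma's trend and robust settings and with no genotype block. Arrays with TGF-b all lay below those without in 5 of the 25 tested members (20%), the 3 Ifitm genes, Ifi209 and Ifih1, beside 14.2% of all genes. They all lay above in 4 members (16%), Ifit3, Samhd1, Parp14 and Igtp, beside 13.3% of all genes. Ifitm1 passed the filter through its arrays without TGF-b alone, so it adds nothing to the 20%.

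The Ifi200 genes encode nuclear proteins with a HIN domain that binds DNA, several with a pyrin domain, and lie in a cluster on chromosome 1. Ifi209 read 607 in WT, 422 in Smad2KO and 543 in Smad3KO without TGF-b, and 117, 190 and 172 with it. The groups did not overlap, and Ifi209 fell by 1.73 (SE 0.215, limma adjusted p = 0.00225). A second bright probe set for Ifi209 had a mean log2 ratio of -1.24 over the 3 genotypes. Mndal read 1523, 1845 and 747 without TGF-b in WT, Smad2KO and Smad3KO, and 623, 1029 and 342 with it. Each genotype was lower with TGF-b, but the groups overlapped because both Smad3KO arrays were low. With genotype as a block, Mndal fell by 1.09 (SE 0.0980, limma adjusted p = 3.18e-05).

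The Mndal probe set is of a kind (_x_at) that can bind related transcripts, and the Ifi200 genes resemble each other. The other Mndal probe set, not of that kind, had a mean log2 ratio of -1.12. Ifi203 and Ifi204, a further pair of the cluster, were under the limit for a test. Ifi203 read 62.9, 60.0 and 47.8 without and 37.6, 40.7 and 32.8 with TGF-b, so its 3 arrays with TGF-b were the lower ones. Ifi204 stayed under the floor on all 6 arrays. Of 7 further Ifi200 genes listed, 1 was matched and tested, Ifi213, with a mean of -0.65 that did not pass (limma adjusted p = 0.23). Ifi213 was bright enough on WT without TGF-b alone (71.2), so its mean carries the limit given for Ifitm1.

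The Gbp and Irg genes encode large and small GTPases that IFN-g strongly induces and that gather on pathogen vacuoles. Igtp (Irgm3), a regulator of the other Irg proteins, read 1447 in WT, 1085 in Smad2KO and 1777 in Smad3KO without TGF-b, and 2139, 2559 and 2596 with it. All arrays with TGF-b lay above those without, and Igtp rose by 0.78 (SE 0.139, limma adjusted p = 0.0129). Gbp2, an effector that coats and lyses vacuoles, read 562, 998 and 799 without TGF-b, and 247, 735 and 533 with it. It was lower with TGF-b in each genotype, the groups overlapped, and it fell by 0.74 (SE 0.137, limma adjusted p = 0.00743). A second Gbp2 probe set gave a mean log2 ratio of -0.77.

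The other 5 Gbp/Irg members did not pass the test of TGF-b. In the order WT, Smad2KO, Smad3KO, the log2 ratios of Gbp3 were -0.92, -0.02 and -0.14, those of Gbp2b (Gbp1) -0.36, -0.11 and -0.37, and those of Gbp6 -1.05, -0.52 and -0.23. Irgm1, which guards host membranes, had 0.80, 0.25 and -0.03. Iigp1 (Irga6), an effector that disrupts parasite vacuoles, had -0.03, 1.36 and 0.17, and its second probe set was likewise highest in Smad2KO with TGF-b, at 212. The 13 other Gbp and Irg genes listed add 5 matched genes, of which 4 were tested, Gbp7, Gbp8, Ifi47 (Irg47) and Irgm2. Gbp7 fell by 0.95 (limma adjusted p = 0.00382), Gbp8 fell by 1.23 (adjusted p = 0.0143) and Ifi47 rose by 1.04 (adjusted p = 0.0118).

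Over members and listed genes together, the log2 ratio was below 0 in all 3 genotypes in 6 of 6 Gbp genes. A second bright Gbp6 probe set broke this pattern, with -0.78 in WT, 0.24 in Smad2KO and 0.12 in Smad3KO. The ratio was below 0 in all 3 in 0 of 5 Irg genes and above 0 in all 3 in 2 of them, Igtp and Ifi47. Ifi47 read 2085, 2290 and 2273 without TGF-b, and 5498, 5082 and 3381 with it, with no overlap. The split between Gbp and Irg genes was noticed in these values and was not tested. Gbp genes are close paralogs, so their probe sets may share signal and are not independent of each other.

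**Figure D2:**
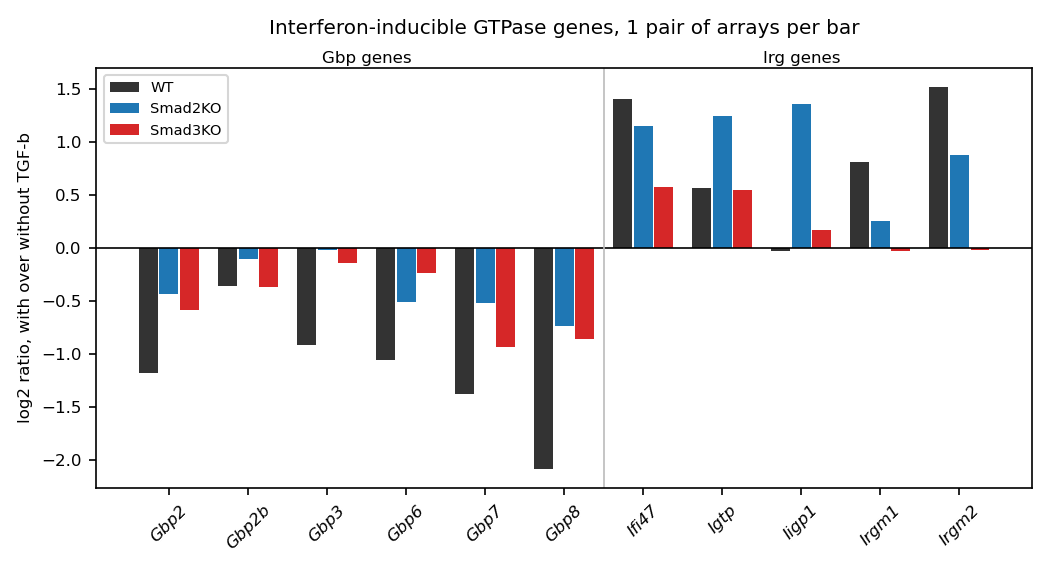
Log2 ratio of signals with over without TGF-b for the 6 tested Gbp genes and the 5 tested Irg genes, members and listed genes together, 1 bar per genotype from 1 pair of arrays (WT grey-black, Smad2KO blue, Smad3KO red). All Gbp bars lie below 0, and the Igtp and Ifi47 bars all lie above 0.

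Among the Ifit/Oas genes, most did not pass the test. Ifih1 (MDA5), the cytoplasmic receptor for long double-stranded RNA, read 414 in WT, 587 in Smad2KO and 378 in Smad3KO without TGF-b, and 83.4, 192 and 168 with it. The groups did not overlap, and Ifih1 fell by 1.70 (SE 0.196, limma adjusted p = 0.000627). Its sister receptor Ddx58 (RIG-I) read 100.4, 43.1 and 86.4 without and 124, 88.2 and 67.8 with TGF-b. Its ratio was 0.30 for WT, 1.03 for Smad2KO and -0.35 for Smad3KO, a mean of 0.33 that did not pass (limma adjusted p = 0.465). Both receptors signal through Mavs, and their values thus went apart in WT and Smad2KO.

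Samhd1, which hydrolyses deoxynucleotides and so limits reverse transcription, read 852, 746 and 980 without TGF-b, and 1559.8, 1406 and 1119 with it. Its groups did not overlap, and Samhd1 rose by 0.66 (SE 0.140, limma adjusted p = 0.0208). Of the 4 other bright Samhd1 probe sets, those with mean log2 ratios of 0.48 and 0.89 were above 0 in each genotype. The other two had mixed signs, 1 with -0.21, 1.44 and -0.01 and 1 with 0.69, -1.08 and 1.67 in WT, Smad2KO and Smad3KO, and the last of these was highest in Smad3KO. Ifit3, a partner of the RNA-binding Ifit1, read 9.24 in WT, 46.5 in Smad2KO and 71.6 in Smad3KO without TGF-b, and 101, 108 and 85.4 with it. The WT array without TGF-b was under the floor, so the WT ratio of 1.64 is a bound. Ifit3 rose by 1.03 (SE 0.289, limma adjusted p = 0.0367). Its call held in 3 of 12 alternative settings. Among others, it was lost under quantile normalization (limma adjusted p = 0.0595) and with the floor at the 25th percentile (adjusted p = 0.234). The rise of Ifit3 did not pass without the WT pair (0.73, limma adjusted p = 0.268) or without the Smad2KO pair (0.95, adjusted p = 0.13), and that of Samhd1 not without the WT pair (0.55, adjusted p = 0.132), which left Igtp as the 1 member that rose.

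None of the remaining 10 Ifit/Oas genes passed the limma test of TGF-b, and 1 of them, Oas1a, had an unadjusted p under 0.05. Ifit2, which binds RNA and promotes cell death, read 331 to 371 on all arrays but WT with TGF-b, at 314. Oas1a and Oas3 make the second messenger that activates RNase L, and the ratios of Oas1a in the same order of genotypes were -0.82, -0.40 and -0.49 (limma adjusted p = 0.172). Oas3 was over the floor on 1 of the WT, Smad2KO and Smad3KO arrays. Stat2, a factor used in type I signalling, read 66.9, 43.6 and 50.4 without and 80.3, 68.8 and 52.7 with TGF-b. Usp18, which removes Isg15 and damps the receptor, had ratios of 1.00, -0.13 and 0.51. Xaf1, which promotes apoptosis, had 0.93, -0.53 and 0.10.

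Herc6, the mouse Isg15 ligase, had ratios of 0.43, 0.26 and -0.07 in that order. Parp14, an ADP-ribosyltransferase, had 0.16, 0.49 and 0.02, with groups that did not overlap although the smallest step between them was slight (184 against 187). Bst2 (tetherin), which holds budding virions on the cell, had -0.06, 0.12 and -0.01. The classic type I targets below the limit for a test were low on all 6 arrays. Highest signals were 55.6 for Ifit1, 31.4 for Mx1, 47.6 for Oas2, 42.3 for Oasl1, 12.04 for Oasl2, 38.7 for Rsad2 (viperin) and 33.3 for Rtp4. Ifit1 and Rsad2 had their highest signal in WT with TGF-b, from 7.03 and 5.09 without, and both without-values are under the floor.

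**Figure D3:**
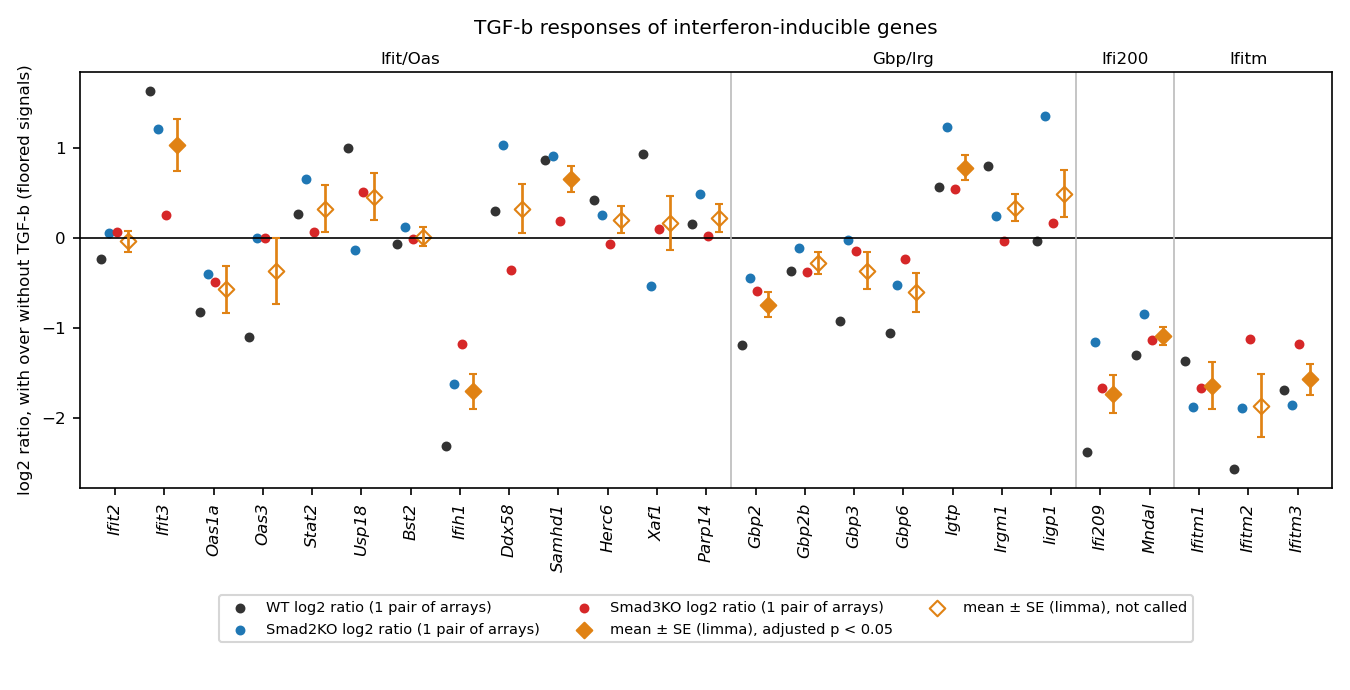
Log2 ratio of floored signals with over without TGF-b for the 25 tested members, small circles for the single pair of arrays of WT, Smad2KO and Smad3KO, and diamonds for the limma mean with its SE, filled where the adjusted p was under 0.05. Filled diamonds lie below 0 for Ifih1, Gbp2, Ifi209, Mndal, Ifitm1 and Ifitm3 and above 0 for Ifit3, Samhd1 and Igtp.

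The size of the responses differed by genotype, as values of single pairs of arrays. At 2-fold, 2 of the 25 members were higher and 9 lower with TGF-b in WT, beside 4.53% and 2.89% of genes. In Smad2KO 4 of the 22 members bright in that pair were higher and 5 lower, beside 2.94% and 1.76%. In Smad3KO 0 of 23 were higher and 6 lower, beside 1.90% and 0.839%. In these counts a gene had to reach 65.0 on 1 array of the pair. The 9 lower in WT were Gbp2, Gbp6, Oas3, Ifih1, Ifi209, Mndal and the 3 Ifitm genes. The 6 lower in Smad3KO were Ifih1, Ifi209, Mndal and the 3 Ifitm genes. Oas3 and Ifitm1 were bright only on arrays without TGF-b, so they had to be lower and add nothing to these counts. Within the WT pair, Gbp6 and Ifitm3 reached 65.0 only without TGF-b, and Ifit3 and Usp18 only with it. Within the Smad2KO pair, Ifit3 and Ddx58 reached it only with TGF-b. The median log2 ratio of the Ifitm genes was -1.68 for WT, -1.88 for Smad2KO and -1.17 for Smad3KO. The Smad2KO value is the ratio of Ifitm1, which lay under the floor with TGF-b. The median of the Ifit/Oas genes was 0.27, 0.12 and 0.02, against medians of all genes from -0.03 to 0.00.

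Differences between these responses were tested with an interaction term, which has 1 residual degree of freedom. The response in Smad3KO was compared with the mean of those in WT and Smad2KO. None of the 25 members passed in limma, where 0.138% of all genes passed as higher and 0.243% as lower. At an unadjusted p under 0.05 there were 5 members, beside 792 of 9450 genes. Samhd1 was closest, at 0.87 for WT, 0.91 for Smad2KO and 0.19 for Smad3KO, a difference of -0.70 (SE 0.168, limma adjusted p = 0.0788). For Ifitm2 the Smad3KO ratio was 1.11 above the mean of the others (SE 0.270, limma adjusted p = 0.275). Both passed under quantile normalization, under centring of each array on its median and with a lower floor, so their side of the threshold depends on the processing. The response in WT was compared with the mean of the 2 knockouts in the same way, where Oas3 had no residual spread and was left out. None of the 24 members passed in limma, where 0.0106% of all genes passed in each direction. At an unadjusted p under 0.05 there were 6 members, beside 700 of 9426 genes.

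Levels also differed between genotypes. The 2 comparisons below share the WT arrays, and treatment was a block in both. In Smad3KO against WT, 2 of the 25 members were higher (8%), Gbp2b and Gbp6, beside 0.222% of all genes, and 1 was lower (4%), Mndal, beside 0.243%. Without and then with TGF-b, Gbp2b read 172 and 134 for WT, 213 and 198 for Smad2KO, and 785 and 607 for Smad3KO. The Smad3KO arrays lay far above the other 4, and the difference from WT was 2.19 (SE 0.149, limma adjusted p = 1.78e-05). Gbp6 was at 95.4 and 45.9 (WT), 92.9 and 65.0 (Smad2KO) and 188 and 160.1 (Smad3KO), higher in Smad3KO by 1.39 (SE 0.264, limma adjusted p = 0.0492). The second bright Gbp6 probe set gave a smaller step, with 91.4 and 53.3 (WT), 65.7 and 77.9 (Smad2KO) and 120 and 130 (Smad3KO). The Gbp6 call was lost without any one of WT without TGF-b (1.73, limma adjusted p = 0.113), WT with TGF-b (1.05, adjusted p = 0.429) or Smad3KO with TGF-b (1.12, adjusted p = 0.238).

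All 7 Gbp/Irg genes were above WT in Smad3KO, as were 4861 of all 9453 genes. Their median log2 difference was 0.91 beside 0.01 for all genes, and 5 of them did not pass. In Smad2KO, against the same WT arrays, 5 of the 7 were above WT, with a median of 0.44 beside -0.01 for all genes. Iigp1, at 106 and 104 in WT, was at 243 and 272 in Smad3KO, higher by 1.29 (limma adjusted p = 0.176). Gbp3 differed by 0.91 (adjusted p = 0.163) and Gbp2 by 0.81 (adjusted p = 0.088). Mndal, described above, was 0.95 lower on the log2 scale in Smad3KO than in WT, a difference of -0.95 (SE 0.120, limma adjusted p = 0.00528), and its other probe set gave 1416 and 569 (WT) and 649.9 and 307 (Smad3KO). The Mndal call was lost without WT without TGF-b (-0.79, limma adjusted p = 0.121) and without WT with TGF-b (-1.10, adjusted p = 0.159). Ifng, the ligand, was picked after its values were seen, and gave 65.3 and 35.1 (WT), 45.4 and 33.9 (Smad2KO) and 271 and 180 (Smad3KO), a difference from WT of 2.21 (limma adjusted p = 0.00528). All cultures held the antibody to IFN-g, and the part of Ifng in the Gbp2b and Gbp6 levels was not tested. Without either Smad2KO array 4 members were called higher in Smad3KO, with Gbp2 and Iigp1 added, and without Smad3KO without TGF-b Samhd1 was also called lower. Thy1, a T cell marker, was lower in Smad3KO by -0.72 (limma adjusted p = 0.0445).

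In Smad2KO against WT, 2 of the 25 members were higher (8%), Gbp2 and Bst2, beside 0.508% of all genes, and 0 were lower in limma, beside 0.497%. Not called but at an unadjusted p under 0.05, 6 were higher (Gbp2b, Gbp3, Ifih1, Ifitm3, Iigp1 and Mndal) and 2 lower (Ddx58 and Herc6). With the called ones these are 10 members, beside 887 of 9453 genes. Iigp1 was 1.00 higher, Gbp3 0.79 and Gbp2b 0.44 (limma adjusted p = 0.349, 0.273 and 0.31). Gbp2, with its values above, was 1.20 higher (SE 0.167, limma adjusted p = 0.00904), and the call was lost without WT with TGF-b (0.86, adjusted p = 0.111). Bst2 was at 301 and 288 (WT), 451 and 490.1 (Smad2KO) and 402 and 399.5 (Smad3KO), and was 0.67 higher in Smad2KO (SE 0.128, limma adjusted p = 0.028). The WT arrays were the lowest of the 6. The Bst2 call was lost without any one of the 4 arrays of WT and Smad2KO, with values of 0.595 to 0.75 and limma adjusted p of 0.0809 to 0.435. Ifitm3 was 0.98 higher and Mndal 0.50 higher in Smad2KO, and neither passed (limma adjusted p = 0.0576 and 0.0939). Without either Smad3KO array 5 members were called higher, the added ones being Ifih1, Ifitm3 and Mndal. Without limma's trend and robust settings Gbp2b in Smad3KO was the 1 member called in either genotype comparison. Centring each array on its median put the median difference of all genes at 0.14 in Smad2KO and 0.18 in Smad3KO, in place of -0.01 and 0.01. The genes called were then 176 higher and 39 lower in Smad2KO, in place of 48 and 47, and 349 higher and 23 lower in Smad3KO, in place of 21 and 23.

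**Figure D4:**
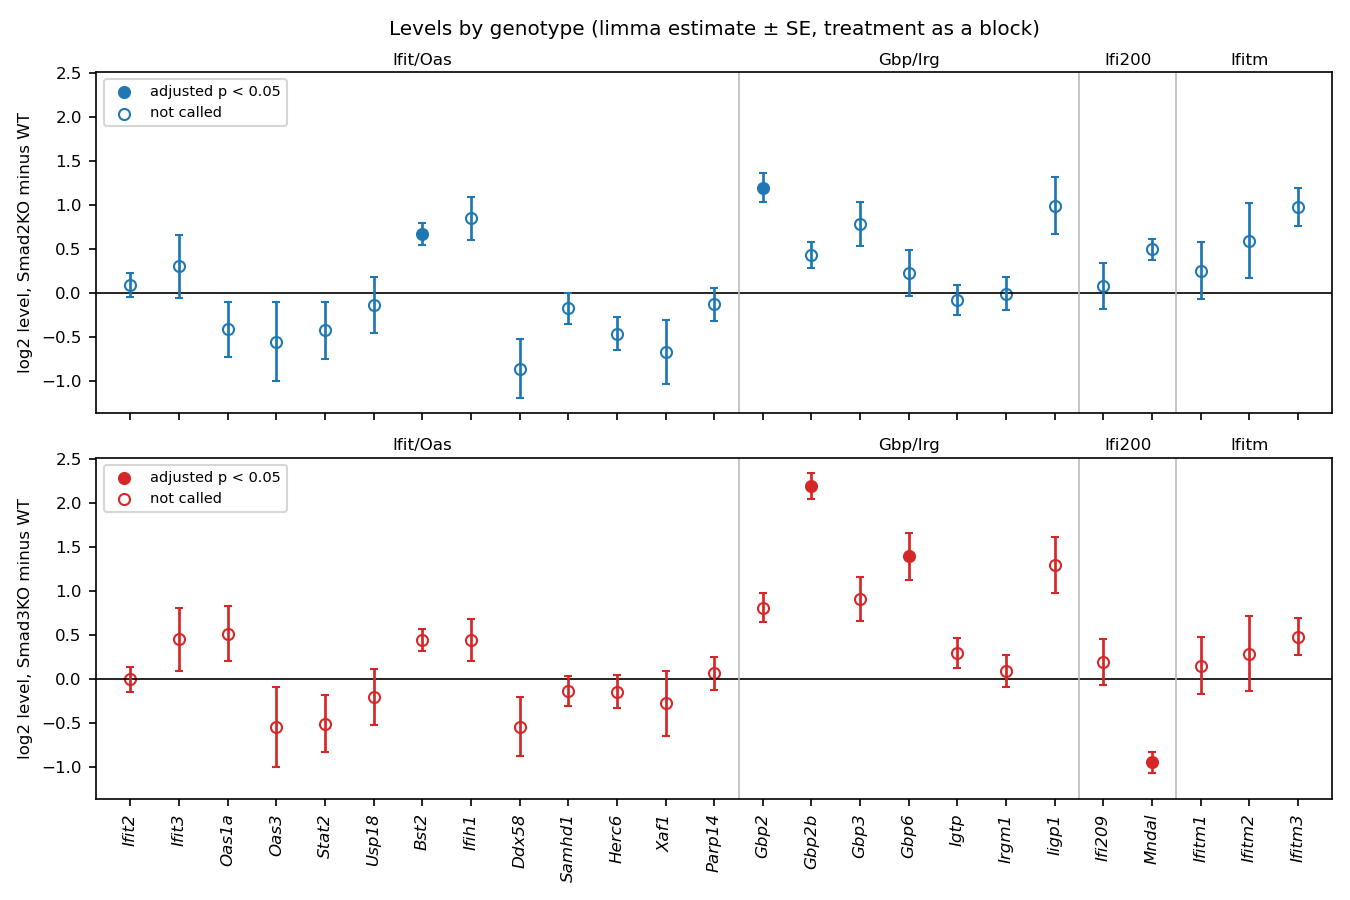
Log2 level of the 25 tested members in Smad2KO (top) and Smad3KO (bottom) minus WT, limma estimate with its SE and treatment as a block, filled where the adjusted p was under 0.05. Gbp2 and Bst2 are filled above 0 in Smad2KO, and in Smad3KO Gbp2b and Gbp6 are filled above 0 and Mndal below 0.

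In the Smad2KO_Smad3het pair, 3 of the 25 members tested on the other 6 arrays were higher and 4 lower at 2-fold. Beside them stood 537 and 533 of the 9453 genes tested there. Of all genes bright in this pair, 12.4% were higher and 10.9% lower. Members below the limit on the other 6 arrays moved too. Without and with TGF-b, Oas2 (88.4 and 828), Ifi203 (57.6 and 328) and Rtp4 (65.3 and 135) were higher, and Ifit1 (69.4 and 8.04) was lower. Igtp read 1471 without and 3035 with TGF-b, and Ifi209 read 124 and 59.5, the direction seen in the other 3 genotypes. Ifitm2 read 1393 and 1038, Ifitm3 224 and 120.1, and Ifih1 260 and 146, so each was lower with TGF-b but by under 2-fold. Gbp2b read 117 and 35.4, and Ifit2 read 43.3 and 284, a step that none of the other 3 pairs had. These arrays had the B cell and myeloid signals given above, and their summed signal of the 6 plasmacytoid dendritic cell markers was 2056 to 2598, against 598 to 741 on the other 6 arrays. The part of such cells in these values was not tested.

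The interferon pathway around the members was read from lists of ligands, receptors, signalling factors, sensors and other targets. Of 6 matched ligand genes 1 was bright, Ifng, and it did not pass with TGF-b (-0.64, limma adjusted p = 0.0929). The counts of these lists stand beside 7.16% of all genes that rose and 5.61% that fell. Of 8 tested receptor and kinase genes 1 rose, Ifngr2, the signalling chain of the IFN-g receptor, by 0.83 (limma adjusted p = 0.00865). In the same list 1 fell, Jak2, the kinase bound to it, by 0.67 (adjusted p = 0.00206). Jak2 read 2015, 2354 and 1811 without TGF-b and 1044, 1452 and 1395 with it, with no overlap. Of 13 tested STAT, IRF and inhibitor genes 4 rose and 2 fell. Irf8, a transcription factor induced by IFN-g, read 911, 627 and 1207 without and 6685, 4699 and 5351 with TGF-b, and rose by 2.64 (limma adjusted p = 0.000195).

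Socs3 rose by 1.63 and Socs1 by 1.46, both feedback inhibitors of cytokine receptors (limma adjusted p = 0.00121 and 0.00379). Socs1 read 88.7, 99.0 and 124 without TGF-b and 393, 268 and 213 with it, and the groups did not overlap. Stat3 rose by 0.39, Irf2, a repressor at ISREs, fell by 0.56, and the phosphatase gene Ptpn6 fell by 0.27 (limma adjusted p = 0.0118, 0.0427 and 0.0361). Of 12 tested genes of nucleic acid sensing 1 rose, the kinase gene Ikbke, by 0.37 (limma adjusted p = 0.0238). Of 28 tested other interferon-stimulated genes 6 rose and 2 fell, beside 7.16% and 5.61% of all genes, with a median of 0.10. Among those with the smallest p, Sp110 rose by 1.01, Ifi35 by 0.84, Lgals9 by 0.46 and Parp9 by 0.59. Isg20, an exonuclease gene, and Ly6e fell by 1.23 and 0.34. Isg20 read 123, 136 and 115 without TGF-b in WT, Smad2KO and Smad3KO, and 40.1, 64.7 and 57.3 with it. Isg20 was bright enough for a test through its arrays without TGF-b alone. Like Ifitm1, it therefore had to be lower with TGF-b, and its call supports nothing further.

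In the same list 3 of the 28 tested genes were lower in Smad2KO than in WT, beside 0.497% of all genes. These were Ifi27, Ifi27l2a and Trim30a, named after their values were seen. Trim30a was at 742 and 713 (WT), 389 and 414 (Smad2KO) and 744 and 746 (Smad3KO), with a Smad2KO difference of -0.86 (limma adjusted p = 0.00257). Its 2 Smad2KO arrays lay below the other 4. Ifi27l2a differed by -1.10 and Ifi27 by -0.99 (limma adjusted p = 0.00257 and 0.0106). The Smad2KO level of these 3 genes was thus lower and that of Gbp2 and Bst2 higher.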

How the data were processed

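RNA from 8 cultures was hybridised to Affymetrix arrays, 1 per genotype and treatment. The deposited values are probe set intensities, which the authors made with GCOS 1.4, per the submitters' processing notes. The sources used here name no algorithm or scaling. Gene names came from GEO's platform annotation: of 45101 probe sets, 34945 had 1 symbol, 932 several, and 9160 non-control ones none. Arrays were scaled to one 2% trimmed mean, floored at the median scaled signal (32.5) and put on the log2 scale. Genes whose highest signal on 6 arrays reached 2 times the floor were tested with limma 3.58.1 in R 4.3.3 (trend and robust eBayes, Benjamini-Hochberg at 0.05), which was tested on simulated data. Promoters came from RefSeq GRCm38.p6, and figures were drawn with matplotlib. Alternatives varied scaling, floor, filter, probe set choice, limma settings, block and arrays.

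Every listed member could be named, with full statistics for those called in any test and for the largest and smallest responses, and up to 6 genes per pathway list with the smallest p among those called. The members and lists were chosen with earlier results of these data known.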

Additional observations from a re-analysis of the deposited data

Results flagged for a closer look

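A group of 3 Ifit/Oas genes had responses of opposite sign in different genotypes, each by at least 1.5-fold in either direction. In all 3 the Smad2KO_Smad3het pair was the one with the lower signal under TGF-b, and those arrays stand apart from the rest. None of these differences was tested, since each response rests on 1 pair of arrays. For Usp18 the log2 ratio was 1.00 in WT and -0.77 in Smad2KO_Smad3het, a difference of 1.77. For Ddx58 it was 1.03 in Smad2KO and -0.71 in Smad2KO_Smad3het, a difference of 1.75. For Xaf1 it was 0.93 in WT and -1.0025 in Smad2KO_Smad3het, a difference of 1.93. A second Xaf1 probe set, too dim for a test, had 0.97 in Smad2KO_Smad3het and 0.00 in WT. The Xaf1 difference thus depends on the probe set. Other Ddx58 probe sets, also too dim for a test, had 0.04 and -0.51 in Smad2KO_Smad3het.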

How the results depend on the processing

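None of the called member results turned in direction under the alternatives that gave it a value; members that were not called were not followed. The TGF-b fit pairs the arrays of a genotype through the block, and the labels give no replicate numbers. Of the settings run, only that with all 8 arrays ended the falls of Ifih1, Ifi209 and Ifitm3 and the Smad3KO call of Gbp2b. That of Ifitm1 ended there too, and with a filter on the mean Ifitm1 was not tested. Causes of the changes below were not tested. For the TGF-b response, the members that rose went from 3 to 0 with no filter on low signals, to 0 without limma's trend and robust settings and to 0 with all 8 arrays, and ranged from 1 to 4 with a pair left out. They went to 2 with quantile normalization, the floor at the 25th percentile, the mean of a gene's probe sets or no genotype block. The members that fell went from 6 to 0 with all 8 arrays, to 5 with no genotype block, and ranged from 6 to 7 with a pair left out. The genes behind a count of 6 could change. The fall of Gbp2 was lost with no filter, mean probe sets, no trend and robust, all 8 arrays or no block, and that of Mndal with all 8 arrays or no block. All genes called went from 1207 to 459 with no filter, 567 with the mean of a gene's probe sets, 393 without trend and robust, 19 with all 8 arrays and 599 with no genotype block, and ranged from 402 to 1804 with a pair left out.

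For Smad2KO against WT, members higher went from 2 to 5 with centring, 4 with the floor at the 25th percentile, and 0 with no filter, with mean probe sets, without trend and robust and with all 8 arrays, and ranged from 0 to 5 with an array left out. All genes called went from 95 to 215, 147, 13, 19, 4 and 2 in that order of settings, and ranged from 21 to 209 with an array left out. For Smad3KO against WT, members higher went from 2 to 1 with quantile normalization, 6 with centring, 1 with a filter on the mean, 1 with no filter, 1 with mean probe sets, 1 without trend and robust and 0 with all 8 arrays, and ranged from 1 to 4 with an array left out. Members lower went from 1 to 0 with no filter, mean probe sets, no trend and robust, or all 8 arrays, and ranged from 0 to 2. All genes called went from 44 to 372 with centring, 125 with the lower floor, 19 with a filter on the mean, 4 with no filter, 6 with mean probe sets, 3 without trend and robust and 1 with all 8 arrays, and ranged from 5 to 263.

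For WT against mutant responses, all genes called went from 2 to 5 with quantile normalization, 38 with centring, 10 with the lower floor, 1 with a filter on the mean, and 0 with no filter, mean probe sets, no trend and robust, or all 8 arrays. For Smad3KO against the other responses, members higher went from 0 to 1 (Ifitm2) and members lower from 0 to 1 (Samhd1) with quantile normalization, centring or the lower floor. All genes called there went from 36 to 121, 107 and 108 in that order, to 14 with a filter on the mean, and to 0 with no filter, mean probe sets, no trend and robust, or all 8 arrays. At 2-fold, members higher in WT went from 2 to 4 and in Smad2KO_Smad3het from 3 to 6 with the lower floor, and members lower in Smad2KO_Smad3het from 4 to 2 with centring or mean probe sets. Signals near the floor limit the ratios of Ifit3, Ifitm1, Oas3 and the 9 dim members.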
